A study of Mus musculus with 6 samples.

Results

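Tripartite motif (TRIM) genes were examined in whole brain RNA taken 48 hours after a peripheral LPS challenge. The members were all genes whose symbol in the platform annotation is Trim, a number and at most 1 further letter. A gene also had to be named alone by a transcript cluster, a group of probes placed along 1 transcribed locus. These conditions were met by 58 of 19938 genes, and each member had 1 such cluster. Of the 68 mouse genes with such a symbol in RefSeq, 8 were found only in clusters that name several genes and are not members (Trim5, Trim17, Trim30b, Trim43a, Trim43b, Trim43c, Trim60 and Trim61). A further 2, Trim30c and Trim34b, had no cluster in this annotation.

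The animals were wild type males of the C57BL/6 strain, bought at an age of 7 to 8 weeks and a weight of 20 to 25 g and kept for 1 week before treatment. The LPS group (n = 3) received LPS from Escherichia coli serotype 055:B5 i.p. at 4 mg/kg, and the vehicle group (n = 3) received PBS. Brains were perfused with PBS before removal, and each mouse had 1 Mouse Gene 1.0 ST array. The comparison asks which TRIM genes are expressed at another level in brains of LPS-treated mice than in those given vehicle. Whole brain RNA mixes all cell types, so that more RNA per cell cannot be told apart from more cells of a type.

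TRIM proteins carry a RING finger, B-box zinc fingers and a coiled coil in that order, and most act as E3 ubiquitin ligases through the RING. The domain that follows, often a PRY-SPRY domain, binds the substrate. Several PRY-SPRY members are induced by interferons and modify sensors of viral nucleic acid or the adaptors behind toll-like receptors. Other members serve neurons, striated muscle or chromatin.

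An interferon-stimulated response element is a DNA sequence found upstream of many interferon-induced genes. Its core, GAAANNGAAA, was searched on both strands (TTTCNNTTTC is its reverse) in the RefSeq promoters of GRCm38.p6, from 250 bases before each annotated start to 50 bases after it. Of 46 members with a promoter in that table, 8 held the core (17.4%), against 3.99% of 27025 genes and 3.44% of 32851 promoters. They were Trim2, Trim12a, Trim12c, Trim21, Trim26, Trim30a, Trim30d and Trim34a, of which 6 lie on chromosome 7. The interferon-gamma activated sequence TTCNNNGAA, the same on both strands, was held by 5 members (10.9%), against 9.55% of all genes. A match is a description of the letters and not of a binding site. The 150 bases before the start of Trim30a, Trim30d and Trim25 are shown because these members were upregulated after LPS. Capitals mark the core, which is absent from the window of Trim25.

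Trim30a, chr7:104465194-104465343, minus strand: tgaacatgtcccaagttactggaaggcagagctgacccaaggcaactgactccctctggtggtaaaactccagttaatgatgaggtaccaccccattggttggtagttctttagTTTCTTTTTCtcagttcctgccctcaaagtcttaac
Trim30d, chr7:104507850-104507999, minus strand: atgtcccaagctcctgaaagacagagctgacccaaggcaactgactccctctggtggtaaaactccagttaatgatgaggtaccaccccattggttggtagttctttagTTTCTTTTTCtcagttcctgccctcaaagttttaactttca
Trim25, chr11:88999253-88999402, plus strand: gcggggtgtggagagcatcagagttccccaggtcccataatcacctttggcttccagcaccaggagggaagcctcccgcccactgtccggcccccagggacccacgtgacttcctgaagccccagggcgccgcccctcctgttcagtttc

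The stretches of Trim30a and Trim30d were 90.3% identical over a global alignment, with 140 identical positions, 5 mismatches and 10 gap positions. In both, the core lies within 50 bases of the start, at bases -36 to -27 for Trim30a and -41 to -32 for Trim30d. Trim30a has 2 annotated promoters, and at the start not shown the core lies at bases 3 to 12. A window of 30 bases around the core is given for the other chromosome 7 members and for Trim26, since these are the members whose values are set beside those of Trim30a and Trim30d. The capitals are again the core, and where 2 cores overlap the capitals span both.

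Trim12c, chr7:104353359-104353388, minus strand: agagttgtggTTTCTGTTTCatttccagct
Trim12a, chr7:104315466-104315495, minus strand: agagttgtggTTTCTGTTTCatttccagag
Trim34a, chr7:104244457-104244486, plus strand: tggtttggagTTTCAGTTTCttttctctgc
Trim21, chr7:102565450-102565479, minus strand: cctctgagagGAAACTGAAAGTGAAAtttg
Trim26, chr17:36836976-36837005, plus strand: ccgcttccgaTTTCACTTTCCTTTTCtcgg

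The cores of Trim12a, Trim34a and Trim21 lie just after the annotated start, at bases 11 to 20, 11 to 20 and 14 to 29. Those of Trim26 lie at bases -160 to -145. Trim12a and Trim12c share all but the last bases of the window. Close paralogs share promoter sequence, so that these matches are not independent of each other.

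Values are log2 expression as the authors normalized it, and a difference of 1 is a 2-fold change. The first principal component (54.5% of the variance) set LPS replicates 1 and 2 against the other 4 arrays, and their array medians were 7.09 and 7.11 against 6.95 to 6.98 elsewhere. Each TRIM call is therefore also given without these arrays where it changes, in a fit that holds 1 LPS array (LPS replicate 3), takes the spread from the 3 PBS arrays and assumes that the lone array varies like them. As a level for genes hardly transcribed in brain, the values of 1194 genes of smell receptors (olfactory and vomeronasal) were used, whose means in the PBS mice had a median of 5.73 and a 95th percentile of 6.52. The mean of the PBS mice was above 6.52 for 26 members and not above it for 32, of which 18 were also not above 5.73. Probes of different genes bind with different strength, so that these limits mark members whose signal may be background and do not rank genes. An exact permutation test of 3 mice against 3 cannot give a two-sided p below 0.1, so precision is limited by how few arrays there are.

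LPS raised 3 of 58 TRIM genes and lowered none, and 55 were not called (limma, Benjamini-Hochberg adjusted p under 0.05 over 35556 clusters). The 3 make up 5.17% of the members, while 0.848% of all genes were higher and 0.0351% were lower by the same rule. The methods' t-test, the unpaired test that the study ran after another normalization (RMA 16), was run here on the deposited values and called none of the 58 after the same adjustment (0.015% of all genes higher and 0.00502% lower), and at an unadjusted p under 0.05 it had 7 higher and 4 lower. By the unadjusted p from limma, under the same limit, 8 members were higher (13.8%, against 6.24% of all genes) and 3 lower (5.17%, against 7.24%). All LPS arrays lay above all PBS arrays in 12 members (20.7%, against 9.79% of all genes) and below them in 7 (12.1%, against 11.2%). The median log2 fold change of the 58 was 0.00, as was that of all clusters, with 29 members above 0 and 29 below. With each array centred on its own median the split became 16 above and 42 below, and the median of the members was then -0.09, as was that of all clusters.

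**Figure D1:**
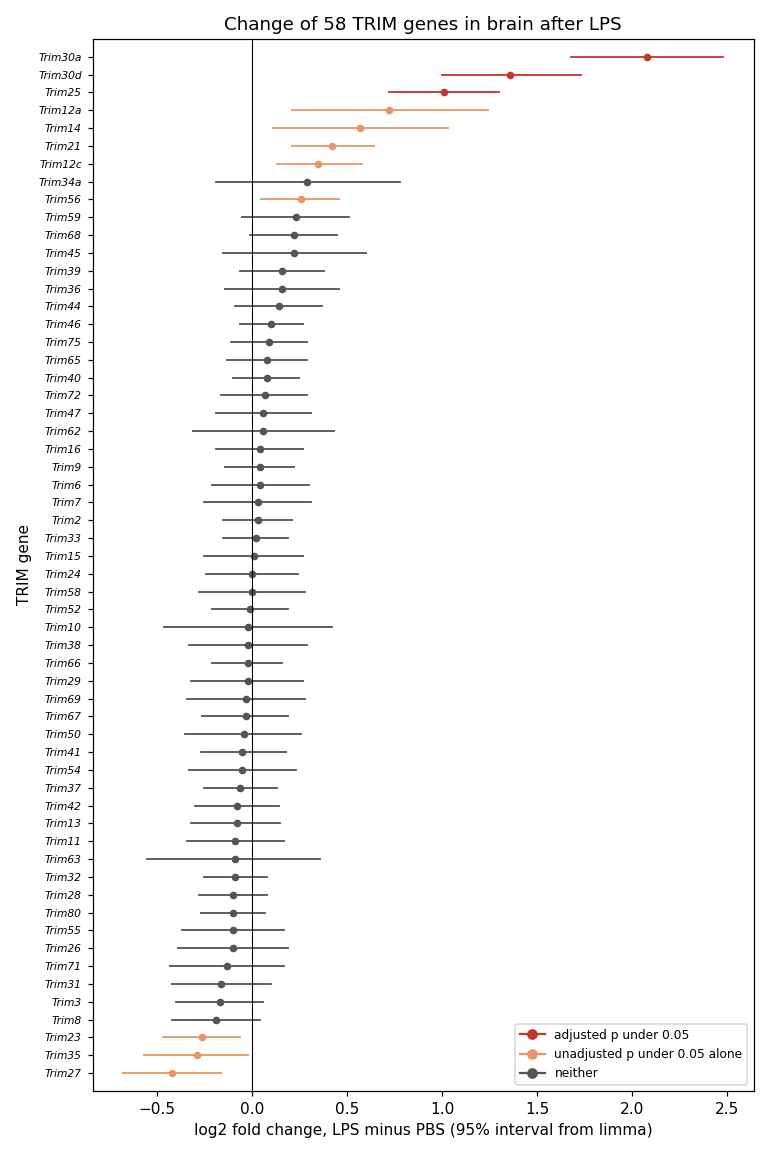
Log2 fold change (LPS minus PBS) of each of the 58 TRIM genes with its 95% interval from limma, ordered by size. The 3 members that passed the adjusted test, Trim30a, Trim30d and Trim25, lie at 2.08, 1.36 and 1.01, and all others lie between -0.42 and 0.72.

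Trim30a had the largest measured log2 fold change of the family, though the background under Trim30d leaves the order of these genes unsettled. It encodes a mouse TRIM protein that is induced by interferons and by toll-like receptor signals, and that promotes the breakdown of the adaptors TAB2 and TAB3. Log2 expression of Trim30a (gene ID 20128, chromosome 7) was 7.35, 6.71 and 7.24 in the PBS mice and 9.14, 9.29 and 9.12 in the LPS mice. The LPS mice lay within 0.2 of each other and all lay well above the PBS mice, of which PBS replicate 2 was the lowest. The means were 7.10 ± 0.34 (SD, n = 3) and 9.18 ± 0.10 (SD, n = 3), a log2 fold change of 2.08 (standard error 0.17) or a fold change of 4.23, with a limma adjusted p of 0.00455. The call was kept without any 1 array (adjusted p up to 0.0330) but not in the fit with LPS replicate 3 as the single LPS array (log2 fold change 2.01, limma adjusted p = 0.0919).

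Trim30d is a close relative of Trim30a and its neighbour. Its log2 expression (gene ID 209387, chromosome 7) was 5.76, 5.57 and 5.76 in the PBS mice and 6.72, 7.23 and 7.22 in the LPS mice. LPS replicate 1 was the lowest of the LPS mice and the groups did not overlap. The log2 fold change was 1.36 (standard error 0.15), a fold change of 2.57, with a limma adjusted p of 0.0157. The mean of the PBS mice, 5.70, lay below the median of the smell receptor genes, so that the size of the change depends on the background. Without PBS replicate 1, 2 or 3 or LPS replicate 2 the adjusted p was 0.0867, 0.0982, 0.0899 and 0.0654 from limma, each above 0.05. In the fit with 1 LPS array, which has no spread of its own for that group, the adjusted p of Trim30d was under 0.05 and 0.251% of all genes were higher and 0.00502% lower.

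Trim25 lies elsewhere, on chromosome 11. Its product attaches ubiquitin chains to the viral RNA sensor RIG-I and also acts as a ligase for ISG15. Log2 expression of Trim25 (gene ID 217069) was 5.98, 5.97 and 6.23 in the PBS mice and 6.94, 6.99 and 7.27 in the LPS mice. All LPS mice lay above all PBS mice, and replicate 3 was the highest of its group in both. The log2 fold change was 1.01 (standard error 0.12), a fold change of 2.01, with a limma adjusted p of 0.0207. Its mean in the PBS mice, 6.06, lay between the median and the 95th percentile of the smell receptor genes. The call was lost on leaving out any array but LPS replicate 3, with adjusted p of 0.114, 0.121 and 0.0591 without PBS replicates 1, 2 and 3 and of 0.0636 and 0.0720 without LPS replicates 1 and 2. It also ended after quantile normalization and after centring on the array median (limma adjusted p = 0.0648 and 0.0619), and in the fit with 1 LPS array, where the log2 fold change was larger at 1.21 (limma adjusted p = 0.0779).

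**Figure D2:**
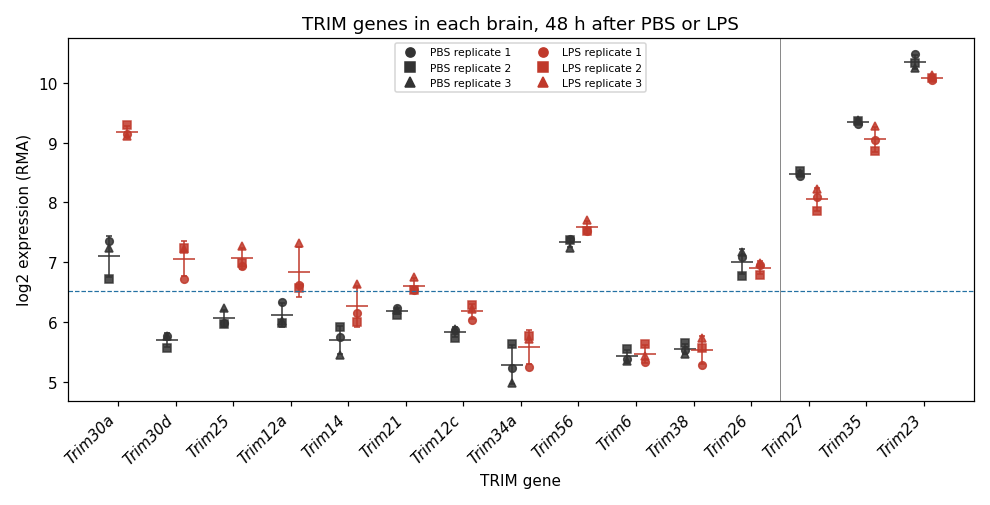
Log2 expression in each brain for the 12 measured interferon-inducible TRIM genes (left of the grey line) and for the 3 members lower at an unadjusted p under 0.05 (right of it), with dark symbols for PBS, red symbols for LPS and bars for the mean and SD (n = 3). The dashed line is the 95th percentile of the smell receptor genes (6.52). Trim30a, Trim30d and Trim25 show the widest gaps between the groups, and the points of Trim6, Trim26, Trim34a and Trim38 overlap.

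A list of 16 TRIM genes known to be interferon-inducible had 12 measured members. Of these 12, limma called the 3 genes above higher (25%, against 0.848% of all genes) and none lower, leaving 9. At an unadjusted p under 0.05 there were 8 higher (66.7%, against 6.24%) and none lower. All LPS arrays lay above all PBS arrays in 8 of the 12 (66.7%, against 9.79% of all genes). The median log2 fold change of the 12 was 0.39. Outside the list, none of 46 members passed, and the median was -0.02. By the unadjusted p none of the 46 was higher and 3 were lower, against 6.24% and 7.24% of all genes. The median difference of the 12 from the PBS mean was 0.28, 0.40 and 0.50 in LPS replicates 1, 2 and 3.

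The other members of the list with an unadjusted p under 0.05 did not pass after adjustment. Trim21, a cytosolic receptor for the Fc part of antibodies, had 6.23, 6.12 and 6.20 in the PBS mice and 6.54, 6.53 and 6.75 in the LPS mice. The groups did not overlap, and the log2 fold change was 0.42 (standard error 0.09, limma adjusted p = 0.132). Without LPS replicate 3, where 3.40% of all genes were higher and 3.49% lower, Trim21 passed (log2 fold change 0.35, adjusted p = 0.0423).

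Trim12a and Trim12c are mouse relatives of the retroviral restriction factor TRIM5. Trim12a had 6.34, 5.98 and 6.01 in the PBS mice and 6.61, 6.57 and 7.32 in the LPS mice, so that LPS replicate 3 stood above the other LPS mice by 0.73 on average. Its log2 fold change was 0.72 (standard error 0.22, limma adjusted p = 0.245). Trim12c had 5.87, 5.73 and 5.88 against 6.04, 6.29 and 6.21, with no overlap and a log2 fold change of 0.35 (limma adjusted p = 0.208). In the PBS mice Trim12a, Trim12c and Trim21 had means of 6.11, 5.83 and 6.18, under the 95th percentile of the smell receptor genes. The mean of Trim12c in the LPS mice, 6.18, was under it as well.

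Trim14, a RING-less member that acts as an adaptor of the mitochondrial protein MAVS, had 5.74, 5.91 and 5.44 in the PBS mice and 6.15, 5.99 and 6.64 in the LPS mice. LPS replicate 3 was again the highest and LPS replicate 2 lay close to PBS replicate 2 (log2 fold change 0.57, limma adjusted p = 0.284). The mean of Trim14 in the PBS mice, 5.69, lay below the median of the smell receptor genes. Its mean in the LPS mice, 6.26, was still under their 95th percentile, so that the size of the change depends on the background. Trim56, which takes part in the response to cytosolic DNA and RNA, had 7.38, 7.37 and 7.24 against 7.52, 7.53 and 7.71. The step was small but without overlap, at 0.26 on the log2 scale (limma adjusted p = 0.286).

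The remaining 4 members of the list overlapped between the groups. Trim34a had 5.23, 5.63 and 4.98 after PBS and 5.25, 5.76 and 5.72 after LPS (log2 fold change 0.29, limma adjusted p = 0.536). Trim6 had 5.38, 5.55 and 5.34 against 5.33, 5.63 and 5.43 (0.04, limma adjusted p = 0.880). Trim38, a regulator of toll-like receptor signals, had 5.53, 5.64 and 5.47 against 5.27, 5.57 and 5.73 (-0.02, limma adjusted p = 0.960). These 3 genes lay below the median of the smell receptor genes in the PBS mice, where a lack of change cannot be read. Trim26, a ligase of nuclear IRF3, lay above both limits, at 7.08, 6.77 and 7.17 against 6.96, 6.78 and 6.98 (-0.10, 95% interval -0.39 to 0.19, limma adjusted p = 0.741). Among genes that hold the response element core, Trim26 and Trim2 (0.03, limma adjusted p = 0.882) were thus the members above background without a call. Over the 8 members with the core the median log2 fold change was 0.39, with 2 called. Over the 38 with a promoter and no core it was 0.00, with 1 called, and 0.848% of all genes were higher. Of the 8, Trim12a, Trim12c, Trim30a, Trim30d and Trim34a are related neighbours on chromosome 7, so they are not independent. Whether the core bears on the change was not tested.

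Trim30a and Trim30d lie in a block of neighbouring TRIM genes on chromosome 7. In GRCm38.p6 the order is Trim6, Trim34a, Trim5, Trim12a, Trim34b, Trim12c, Trim30b, Trim30c, Trim30a, Trim30d and the pseudogene Trim30e-ps1. Of these, 6 are members, and all 6 had a positive log2 fold change, from 0.04 for Trim6 to 2.08 for Trim30a, with a median of 0.54. Centred on the array medians, Trim6 turned to -0.05. The 52 members outside the block had a median of -0.01, with 23 positive. Trim21 and Trim68 lie on the same chromosome outside the block. Trim68 had 6.44, 6.45 and 6.46 in the PBS mice and 6.71, 6.81 and 6.50 in the LPS mice, so that LPS replicate 3 lay next to the PBS mice (log2 fold change 0.22, limma adjusted p = 0.361).

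Clusters that name genes of the block, alone or with others, but are not members had differences in the same direction. They were chosen after their values were seen. A cluster that lists Trim5, Trim12a and Trim12c together had 6.33, 6.36 and 6.34 after PBS and 6.92, 6.76 and 6.99 after LPS, a log2 fold change of 0.55 (limma adjusted p = 0.0511). It carries all 3 accessions of the Trim12a cluster and all 3 of the Trim12c cluster, so that these transcripts cannot be told apart on it. A cluster that lists Trim5 and Trim12c had a log2 fold change of 0.61 (limma adjusted p = 0.0859). Its position in the genome was not checked, so it may lie outside the block. One that lists Trim30b with a predicted gene had 0.36 (limma adjusted p = 0.198). Trim30e-ps1 had 6.46, 6.35 and 6.39 against 6.99, 6.98 and 6.81, a log2 fold change of 0.53 (limma adjusted p = 0.0584). None of these 4 passed, and in each the LPS mice lay above the PBS mice. The genes of the block are related in sequence to different degrees, and how far a transcript of Trim30a binds to probes of its neighbours was not tested.

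**Figure D3:**
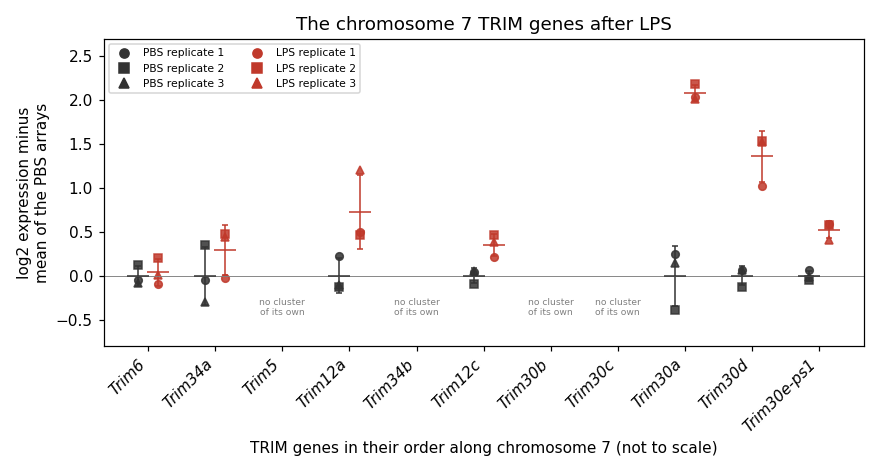
Difference in log2 expression from the PBS mean for the TRIM genes of the chromosome 7 block, in their order along the chromosome, with dark symbols for PBS, red symbols for LPS and bars for the mean and SD (n = 3). Trim30a and Trim30d rise by 2.08 and 1.36, and the pseudogene beside them has a difference of 0.53.

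By domain class, all 3 called members carry the PRY-SPRY domain. Of 29 measured PRY-SPRY members limma called 3 higher (10.3%, against 0.848% of all genes) and 0 lower, leaving 26. Their median log2 fold change was 0.06. The 3 are the same genes already counted in the interferon-inducible list. In the other classes no member passed limma in either direction, but these had only 2 to 11 measured members each. Of all 46 members outside the interferon-inducible list, none was higher and 3 were lower by the unadjusted p, against 6.24% and 7.24% of all genes.

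These 3 were Trim27, Trim35 and Trim23. Trim27, a PRY-SPRY protein that represses transcription, had 8.44, 8.52 and 8.49 in the PBS mice and 8.09, 7.85 and 8.23 in the LPS mice. The LPS mice lay below the PBS mice, and the log2 fold change was -0.42 (standard error 0.11, limma adjusted p = 0.193). Trim35, also a PRY-SPRY member, had 9.31, 9.37 and 9.38 against 9.04, 8.86 and 9.28, and LPS replicate 3 lay just under the PBS mice (log2 fold change -0.29, limma adjusted p = 0.327). Trim23, which carries an ARF GTPase domain, had 10.48, 10.33 and 10.25 against 10.05, 10.09 and 10.13 (log2 fold change -0.26, limma adjusted p = 0.270). Without LPS replicate 3, where 3.49% of all genes were lower, Trim27 and Trim35 passed as lower (limma adjusted p = 0.0284 and 0.0407), 2 of 58 members. Their difference from the PBS mean in LPS replicate 3 itself was -0.25 and -0.08.

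Members that serve neurons and chromatin did not pass the test. Of the NHL-repeat class, 4 members, of which 3 lay above 6.52 in the PBS mice, had log2 fold changes from -0.17 to 0.03 with a median of -0.11, and none passed (limma adjusted p from 0.451 to 0.882). Trim3, a ligase of the postsynapse, was the lowest of them, at 11.02, 10.95 and 11.12 after PBS and 10.78, 10.79 and 11.01 after LPS. Here LPS replicate 3 lay among the PBS mice. Trim2, a ligase of neurofilament light chain in neurons, had a 95% interval of -0.15 to 0.21 around its log2 fold change of 0.03, and Trim32 one of -0.25 to 0.08 around -0.09.

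Of the PHD-bromodomain class, whose members are chromatin co-regulators, Trim24, Trim28, Trim33 and Trim66 had log2 fold changes from -0.10 to 0.02, with limma adjusted p of at least 0.561. Trim28, the co-repressor that silences endogenous retroviruses, had 9.36, 9.26 and 9.27 against 9.16, 9.16 and 9.26, with a 95% interval of -0.28 to 0.08. Of the COS-box class, which binds microtubules, 7 members had log2 fold changes from -0.10 to 0.16 and none passed. It includes Trim9 (0.04, 95% interval -0.14 to 0.22), which guides axon branching, and Trim46 (0.10, 95% interval -0.06 to 0.27), which organizes microtubules at the start of the axon. Trim54, Trim55 and Trim63 of the same class, and the PRY-SPRY member Trim72, are ligases of striated muscle. None of these 4 exceeded the 95th percentile of the smell receptor genes in the PBS mice, so that their log2 fold changes of -0.10 to 0.07 say little.

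Trim37, Trim9 and Trim33 had bright probes, which sets no order of expression between genes, and their log2 fold changes were -0.06, 0.04 and 0.02. Trim75, Trim42 and Trim55 had dim ones, below the median of the smell receptor genes, with log2 fold changes of 0.09, -0.08 and -0.10. The membrane-anchored Trim13 and Trim59 had log2 fold changes of -0.08 and 0.23 (limma adjusted p = 0.732 and 0.414). Over all 58 members the standard error of the log2 fold change ran from 0.07 to 0.22 with a median of 0.10. The 95% interval lay within a 1.5-fold change in either direction (0.58 on the log2 scale) for 49 members, and for 24 of the 26 above 6.52 in the PBS mice.

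**Figure D4:**
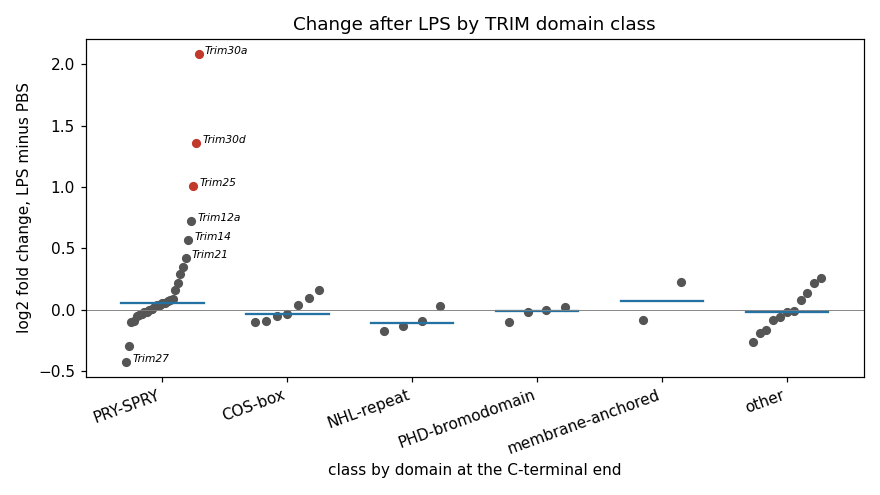
Log2 fold change (LPS minus PBS) of the members by the domain class at the C-terminal end, with 1 point per gene, red points for those with an adjusted p under 0.05 and blue lines for class medians. The PRY-SPRY class holds the 3 called genes and the widest range, from -0.42 to 2.08.

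Family members that go by other names did not pass either. Of 8 such genes limma called none, with 1 higher by the unadjusted p and log2 fold changes from -0.32 to 0.30. Pml, which builds nuclear bodies and is interferon-inducible, had 7.28, 7.54 and 7.27 in the PBS mice and 7.54, 7.65 and 7.80 in the LPS mice, which barely separated the groups (log2 fold change 0.30, limma adjusted p = 0.307).

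Genes that TRIM proteins act on or with were taken from 3 further lists. Of 19 measured nucleic acid sensing partners, limma called 4 higher (21.1%, against 0.848% of all genes) and none lower. Their median log2 fold change was 0.16. Ddx58, which encodes the TRIM25 substrate RIG-I, had 7.28, 7.56 and 7.69 after PBS and 8.90, 8.73 and 8.93 after LPS (log2 fold change 1.35, limma adjusted p = 0.00713). Like Trim25, it had no overlap between the groups. The other 3 were Irf7, Zbp1 and Sting1, with log2 fold changes of 2.60, 0.88 and 0.80 (limma adjusted p = 0.00153, 0.0255 and 0.00664). Irf7 and Zbp1 lay under 6.52 in the PBS mice.

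The adaptors did not pass. Tab2 and Tab3, whose products TRIM30a removes, had log2 fold changes of 0.23 and 0.03 (limma adjusted p = 0.306 and 0.886), and Mavs, Traf6 and Tbk1 had 0.00, 0.07 and -0.02 (limma adjusted p of at least 0.835).

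Of 14 genes of E2 conjugating enzymes, which hand ubiquitin to RING ligases, and the unfoldase p97, none passed in either direction. The median was -0.01, with 1 higher and 1 lower by the unadjusted limma p, and the methods' t-test called none. Ube2l6, the E2 enzyme of ISG15, had 7.23, 7.18 and 7.05 against 7.58, 7.52 and 8.03 (log2 fold change 0.56, limma adjusted p = 0.198). Ube2e2 had a log2 fold change of -0.24 (limma adjusted p = 0.244), and Ube2n and Ube2w, used by TRIM21, had -0.21 and 0.03 (limma adjusted p = 0.384 and 0.926).

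Of 10 measured interferon signalling factors limma called 1 higher (10%, against 0.848% of all genes) and none lower, leaving 9. Their median was 0.23. Stat2 had 8.17, 8.15 and 8.20 against 8.90, 8.90 and 8.77, a log2 fold change of 0.69 (limma adjusted p = 0.0141). Its partner Irf9 had 0.92 (limma adjusted p = 0.0555), and Irf1 had 0.38 (limma adjusted p = 0.166). No factor of the list passed when an array other than LPS replicate 3 was left out, and 2 partners were higher when any 1 PBS replicate was left out. In the fit with 1 LPS array, 1 partner and 0 factors were higher.

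Markers of the cells in the tissue moved too. Of 6 endothelial markers 5 were higher (83.3%, against 0.848% of all genes) and none lower, with a median log2 fold change of 0.96. Their mean level was 7.46 to 7.60 in the PBS arrays and 8.39 to 8.55 in the LPS arrays. Of 9 microglia and macrophage markers, Itgam and Ptprc were higher (22.2%) and none lower. Their median was 0.47 and their mean level 7.58 to 7.77 against 8.09 to 8.40. Of 7 neutrophil markers 1 was higher (14.3%), and of 4 measured blood monocyte markers 1 was higher (25%). None of the T and NK cell, B cell, neuron, astrocyte, oligodendrocyte and erythrocyte markers passed. The neuron markers had a mean level of 11.69 to 11.75 against 11.67 to 11.70, and all 7 were above 6.52. All neutrophil, B cell and erythrocyte markers, and 8 of 9 T and NK cell markers, lay under the 95th percentile of the smell receptor genes in the PBS mice. The part of these cells in the change of Trim30a, Trim30d and Trim25 was not tested.

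**Figure D5:**
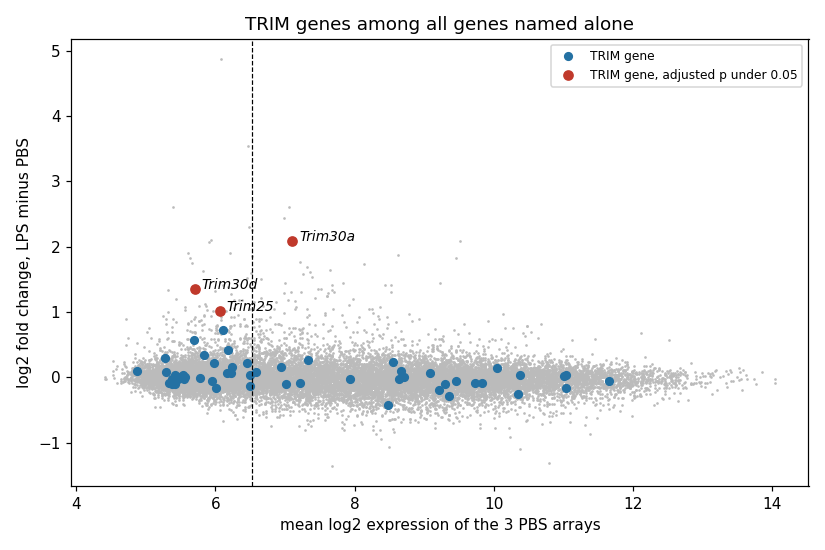
Log2 fold change (LPS minus PBS) against the mean log2 expression of the PBS arrays for 19938 genes (grey), with the 58 TRIM genes in blue and the 3 called ones in red. The dashed line marks 6.52, the 95th percentile of the smell receptor genes, and most TRIM genes lie near 0 on the y axis on either side of it.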

How the data were processed

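Whole brain RNA of 3 LPS-treated and 3 vehicle-treated mice was measured on Mouse Gene 1.0 ST arrays. The deposited values are log2 expression per transcript cluster, which the authors made by RMA (background correction, normalization between arrays and summary of probes). Partek (RMA with a GC adjustment) and GeneSpring (RMA 16) are both named in the methods, and fold changes computed from the deposited values identify these as the Partek version. No detection calls were used here. Clusters were named from the platform annotation (21789 name 1 gene, 1621 several, and 12146 are not listed), and the symbol of all 58 members is unchanged in RefSeq.

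The test was the moderated one of limma (version 3.58.1, R version 4.3.3), two-sided. P-values were adjusted by Benjamini-Hochberg over all 35556 clusters, and those under 0.05 were called. Members and lists were chosen with earlier results of these data known. Values per array are given for members past the threshold, for the interferon-inducible list and for up to 8 members in each direction with an unadjusted p under 0.05. The 3 members of brightest and the 3 of dimmest probes are named. Trim2, Trim3, Trim13, Trim28, Trim32, Trim46, Trim59 and Trim68 were named after their values were seen. In other lists the called genes and up to 4 with the smallest p are named, with some chosen for their link to a TRIM protein. The script was tested on simulated data. Alternatives were the methods' t-test, eBayes with trend and robust, quantile normalization, array weights, subtracting each array's median, a filter on the dimmest 40% of clusters, clusters naming 1 gene, the replicate block, an offset of 32, the mean of a gene's clusters and each array left out. Leaving out LPS replicates 1 and 2 together was added after the data were seen and leaves 1 LPS array.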

Additional observations from a re-analysis of the deposited data

How the results depend on the processing

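Of 58 TRIM genes 3 were higher and none lower. With array weights 9 were higher and 5 lower, among them Trim12a, Trim14 and Trim21 (higher) and Trim23, Trim27 and Trim35 (lower). With the same weights 6 interferon-inducible TRIM genes, 9 sensing partners, 2 E2 enzymes and 4 interferon signalling factors were higher. Of all 35556 clusters 4751 were then higher and 3572 lower, against 232 and 22 without weights. The added calls with array weights are thus not particular to TRIM genes. Run on the deposited values, the methods' t-test called 0 TRIM genes, 0 partners and 0 factors. With LPS replicates 1 and 2 both left out (1 LPS array, assumed to vary like the 3 PBS arrays, which give the spread), 1 TRIM gene (Trim30d, of the interferon-inducible list, which thus also had 1), 1 partner and 0 factors were higher, and the median of the members was 0.02. That median was -0.09 after centring on the array median and -0.01 after quantile normalization. Leaving out each array in turn gave 1 to 4 TRIM genes higher and 0 to 2 lower, 1 to 4 interferon-inducible ones, 2 to 5 partners, 0 to 1 E2 enzymes, 0 to 2 factors and a median of 0.01 to 0.03. The 4 higher and 2 lower TRIM genes came without LPS replicate 3, where 3.40% of all genes were higher and 3.49% lower. Interferon signalling factors higher numbered 2 with clusters naming 1 gene, with the mean of clusters and without the dimmest 40% of clusters. Of the named members, 6 results reversed. Trim6 was -0.07 with array weights, -0.05 when centred on the array median and -0.04 without LPS replicate 2, and Trim38 was 0.19 with LPS replicates 1 and 2 both left out, 0.11 without LPS replicate 1 and 0.03 without PBS replicate 2 (-0.12 to 0.11 over all arrays left out in turn). The cause was not tested.

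Replicate numbers were shared by the groups, but same-numbered arrays had correlations of their deviations from the group means of 0.09, -0.05 and 0.10, so the numbers do not pair the arrays. Array PBS replicate 1 correlated better with LPS replicate 2 (0.15). With the replicate block 2 TRIM genes were higher (Trim25 and Trim30a), 2 were higher in the interferon-inducible list, 2 partners and 0 interferon signalling factors were higher, and Trim30d had an adjusted p of 0.0774 (limma). Without the dimmest 40% of clusters 30 members were tested and 2 were higher (Trim25 and Trim30a). This filter removed Trim30d, which was therefore not tested in that setting. Members near the background level carry too little signal over background for a lack of change to be read.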
